A study of Mus musculus with 42 samples.

Results

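The 8 genes described here encode fatty acid desaturases of the mouse: the stearoyl-CoA desaturases Scd1, Scd2, Scd3 and Scd4, and the fatty acid desaturases Fads1, Fads2, Fads3 and Fads6. They were taken by name, whatever their values, from the 48709 genes of the deposited count table, and all 8 have a row in it. Stearoyl-CoA desaturases place the first double bond into saturated fatty acids and so make the monounsaturated acids of triglycerides, cholesteryl esters and phospholipids. Fads2 and Fads1 act in turn on the polyunsaturated acids of the diet and make arachidonic acid, EPA and, with further steps, DHA. In liver Scd1, Fads1 and Fads2 are known to be raised by the transcription factor SREBP1 and lowered by dietary polyunsaturated fat.

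The libraries came from K14-Rac1V12 mice, which carry an active Rac1 under the keratin 14 promoter and serve as a model of psoriasis-like skin. Every group carries the transgene, and no wild-type group is among the samples. Mice 14 weeks old that had eaten an omega-3-deficient (OD) diet for 2 weeks were assigned, 5 to a diet, to a diet rich in EPA, a diet rich in DHA, or the OD diet, and were fed for 12 weeks. The dose was 3 g of the omega-3 acid per kg of diet, per the labels, whose text writes EPA also where it gives the dose of the DHA diet. Aorta, liver and ear skin were each measured in 5 EPA, 5 DHA and 4 OD libraries, 42 in all, by counting the 3′ ends of transcripts.

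Library totals were 40157 to 220488 counts in skin, 343824 to 768532 in liver and 179795 to 717508 in aorta. Levels are given as CPM, the counts of a gene brought to a common library size within each tissue. Since each transcript is counted at 1 end, levels were not divided by gene length. The tissues carried their defining markers: keratin gene Krt14 averaged 14000 ± 3540 CPM in skin, the albumin gene Alb 50920 ± 7017 CPM in liver and the smooth muscle actin Acta2 4921 ± 1318 CPM in aorta (SD, n = 14 each). Aorta also held adipocyte transcripts, although fat around the vessel had been taken off, per the labels' protocol: Ucp1, the uncoupling protein of brown fat, was at 426 to 2388 CPM in the 14 aorta libraries. In each tissue 3 of 14 libraries held the Xist transcript above 200 CPM, and they stand at the same places of the accession order in all 3 tissues (1 and 5 of the EPA libraries, 1 of the DHA libraries). No OD library did, so every comparison of an omega-3 diet with OD is unbalanced for high Xist. The labels give no sex. In whole tissue, fewer cells of a type and less RNA per cell cannot be told apart.

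The genes lie in 3 places of the GRCm38 genome. The stearoyl-CoA desaturases form a cluster on chromosome 19, with Scd3 at chr19:44203269-44244016, Scd2 at chr19:44293674-44306864 and Scd4 at chr19:44333092-44346743 on the plus strand, and Scd1 at chr19:44394455-44407879 on the minus strand. Fads3 at chr19:10041569-10060110 (plus), Fads2 at chr19:10062765-10101746 (minus) and Fads1 at chr19:10182888-10196877 (plus) lie side by side, and Fads6 is alone at chr11:115279622-115297663 (minus). The last 500 bases of the 8 transcripts shared 0 stretches of 30 bases, so that none of the 8 could take such a stretch from another. Of annotated genes that overlap them, Mir5114 in Scd2 and Mir6993 in Fads1 had 0 counts in the 42 libraries, and an antisense RNA over Scd3 was not analysed here.

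RefSeq's table for GRCm38.p6 held the promoter of 5 of the 8 genes, those of Scd3, Scd4, Fads2, Fads3 and Fads6. The 250 bases before RefSeq's start of Fads3, Fads2 and Fads6 are printed. They were chosen because Fads2 and Fads3 are neighbours with opposite tissue patterns and Fads6 shares the pattern of Fads2. RefSeq's starts differ from the gene bounds given above. Within those bounds lie most of the Fads2 and Scd4 windows and parts of the Fads6 and Scd3 windows. The Fads3 window lies outside them. Capitals mark, on either strand, the CCAAT box known to bind NF-Y, the GGGCGG box known to bind Sp1 and the AGGTCA half-site known to bind nuclear receptors; none of the matches overlap. Each is given 5′ to 3′ on the strand of its gene.
Fads3, chr19:10041298-10041547, plus: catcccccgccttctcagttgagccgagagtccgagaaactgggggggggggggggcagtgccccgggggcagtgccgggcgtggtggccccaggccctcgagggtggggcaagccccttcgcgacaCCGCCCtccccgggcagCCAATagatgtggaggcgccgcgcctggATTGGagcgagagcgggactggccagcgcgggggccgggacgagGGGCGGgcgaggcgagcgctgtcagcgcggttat
Fads2, chr19:10101504-10101753, minus: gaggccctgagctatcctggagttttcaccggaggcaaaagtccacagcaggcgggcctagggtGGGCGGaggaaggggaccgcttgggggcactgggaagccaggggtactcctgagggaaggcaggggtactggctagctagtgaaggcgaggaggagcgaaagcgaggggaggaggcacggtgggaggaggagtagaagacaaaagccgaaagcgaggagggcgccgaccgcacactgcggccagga
Fads6, chr11:115297563-115297812, minus: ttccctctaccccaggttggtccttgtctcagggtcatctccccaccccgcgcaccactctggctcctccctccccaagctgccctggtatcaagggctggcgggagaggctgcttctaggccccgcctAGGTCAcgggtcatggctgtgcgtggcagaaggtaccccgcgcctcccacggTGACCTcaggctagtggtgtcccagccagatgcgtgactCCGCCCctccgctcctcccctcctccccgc
The window of Fads3 held 2 CCAAT and 2 GGGCGG boxes in 74.4% G and C, that of Fads2 held 1 GGGCGG box in 64.8%, and that of Fads6 held 1 GGGCGG and 2 AGGTCA boxes in 67.6%. Of 32851 mouse promoters of the same length 33.8% held CCAAT, 32.7% GGGCGG and 14.0% AGGTCA. Neither TATAAA (12.4% of promoters) nor the sterol element TCACCCCAC (0.496%) was among these letters, and none of the 5 motifs was in the windows of Scd3 and Scd4. The matches are a description of the sequence and show no binding.

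Each tissue had its own set of desaturases. Scd1 was the leading desaturase in all 3 tissues, and the others divided: Scd2 was highest in skin, Fads1, Fads2 and Fads6 in liver, and Fads3 in aorta. Tissues were compared in 1 edgeR quasi-likelihood fit of the 9 groups over 9912 genes, with the mean over diets as the level of a tissue. The labels do not say which libraries of different tissues come from 1 mouse, and the fit treats all 42 as independent. With 5 mice assigned to a diet, and 5 EPA and 5 DHA libraries in each tissue, these libraries cannot all come from different mice. The high-Xist libraries also stand at matching places. Neither the p-values between tissues nor those of diet responses compared between tissues allow for shared mice. Between liver and aorta 5 of 6 desaturases passed an adjusted p of 0.05, 3 higher and 2 lower in liver, where 66.1% of all genes passed (30.5% higher, 35.6% lower). Leaving out Fads2, which had 0 counts in skin, 4 of 5 passed between skin and aorta, 1 higher and 3 lower in skin, where 62.8% of all genes passed (28.9% higher, 33.9% lower). Between skin and liver 5 of 5 passed, 2 higher and 3 lower in skin, where 71.2% of all genes passed (37.4% higher, 33.9% lower). Since most genes differ between these tissues, the counts say little about desaturases, and the sizes below are the description.

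Scd1 averaged 1325 ± 595 CPM in skin, 3553 ± 2126 CPM in liver and 8284 ± 2885 CPM in aorta (SD, n = 14 each). Skin was below aorta by a log2 difference of -3.10 ± 0.28 (SE, adjusted p = 6.81e-14) and below liver by -2.65 ± 0.27 (adjusted p = 3.44e-12). Liver and aorta overlapped and did not pass (-0.44 ± 0.25, adjusted p = 0.122, 95% interval -0.96 to 0.07). That pair depends on the scaling: with library totals in place of TMM the difference was -1.13 and passed (adjusted p = 8.95e-05), and the median of all genes was then -0.81, against -0.12 with TMM.

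Scd2, the isoform known in mice for its level in brain and in early life, was highest in skin and lowest in liver among the 3 tissues measured. It averaged 373 ± 170 CPM in skin, 4.71 ± 3.04 CPM in liver and 90.98 ± 31.96 CPM in aorta (SD, n = 14 each). In CPM, which is scaled within each tissue, every skin library, at 157 CPM or more, was above every aorta library, at 150 CPM or less. Every skin library was also above every liver library, at 9.43 CPM or less. Whether skin and aorta libraries separate on the scale of the fit was not tested. With library totals the median of all genes between skin and aorta was 0.42, against -0.05 with TMM. Skin was 2.82-fold above aorta (log2 1.497 ± 0.18, adjusted p = 4.17e-10) and above liver by a log2 difference of 4.95 ± 0.26 (adjusted p = 9.61e-23). Liver was 10.99-fold below aorta (-3.46 ± 0.27, adjusted p = 3.72e-16).

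The share of the isoforms follows from these levels. Scd1 gave 98.9% of the 53605 stearoyl-CoA desaturase counts of aorta and 99.9% of the 27853 counts of liver. In skin it gave 78.6% of 2625 counts, and Scd2 gave 21.1% (95% Wilson interval 19.6 to 22.8%, counting error only). Scd3, which mouse work places in sebaceous and Harderian glands, had 5 counts in skin, 3 in liver and 5 in aorta. Scd4, known from mouse heart, had 1 count in skin and 0 in liver and aorta, which allows up to 0.411 CPM in liver and 0.453 CPM in aorta. Neither gene had enough counts to be tested in any tissue.

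Fads1, which makes arachidonic acid and EPA in the last desaturation before them, averaged 280 ± 68.8 CPM in liver and 41.7 ± 11.3 CPM in aorta (SD, n = 14 each). Its 20 counts in skin lay in 10 of the 14 libraries. All liver libraries, at 186 to 394 CPM, were above all aorta libraries, at 23.3 to 62.4 CPM, and the fitted difference was 10.7-fold (log2 3.43 ± 0.15, adjusted p = 6.54e-27). Skin was below aorta by -2.24 ± 0.30 (adjusted p = 5.86e-09) and below liver by -5.66 ± 0.23 (adjusted p = 1.07e-27).

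Fads2, the enzyme of the first step on linoleic and alpha-linolenic acid, was at 27.4 ± 10.2 CPM in liver (SD, n = 14), from 205 counts. It had 4 counts in aorta and 0 of 1524533 counts in skin. Liver was 53.7-fold above aorta (log2 5.75 ± 0.37, adjusted p = 5.07e-16) and at least 14.3-fold above skin, taking 3 counts over all skin libraries as the floor. Of the counts of Fads1, Fads2 and Fads3 together, Fads2 gave 8.86% in liver (205 of 2314, 95% Wilson interval 7.77 to 10.1%) and 0.846% in aorta (4 of 473, 0.329 to 2.15%). Both steps of the polyunsaturated pathway were thus counted in every liver library. In skin Fads2 gave 0 of the 35 Fads1 to Fads3 counts (95% Wilson interval 0 to 9.89%). That interval holds the liver share, so these few counts do not show that the first step was missing in skin.

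Fads3, which acts on sphingoid bases, was the aorta gene of the family. It averaged 27.1 ± 9.48 CPM in aorta (SD, n = 14), where it gave 39.5% of the Fads1 to Fads3 counts (95% Wilson interval 35.2 to 44.01%). It had 15 counts in skin and 8 in liver. Liver was below aorta by -3.88 ± 0.38 (adjusted p = 4.80e-13) and skin by -1.98 ± 0.36 (adjusted p = 5.07e-06). Skin was above liver by 1.91 ± 0.61 (adjusted p = 0.00486), but not past the threshold without OD skin replicate 1, which holds 5 of the 15 skin counts (1.34, adjusted p = 0.108). Fads6 averaged 61.0 ± 13.7 CPM in liver, with 13 counts in skin and 30 in aorta. Liver was 20.4-fold above aorta (log2 4.35 ± 0.23, adjusted p = 5.50e-23) and skin was below liver by -3.95 ± 0.30 (adjusted p = 9.16e-17), while skin and aorta did not pass (0.40 ± 0.48, adjusted p = 0.495, 95% interval -0.58 to 1.37).

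**Figure D1:**
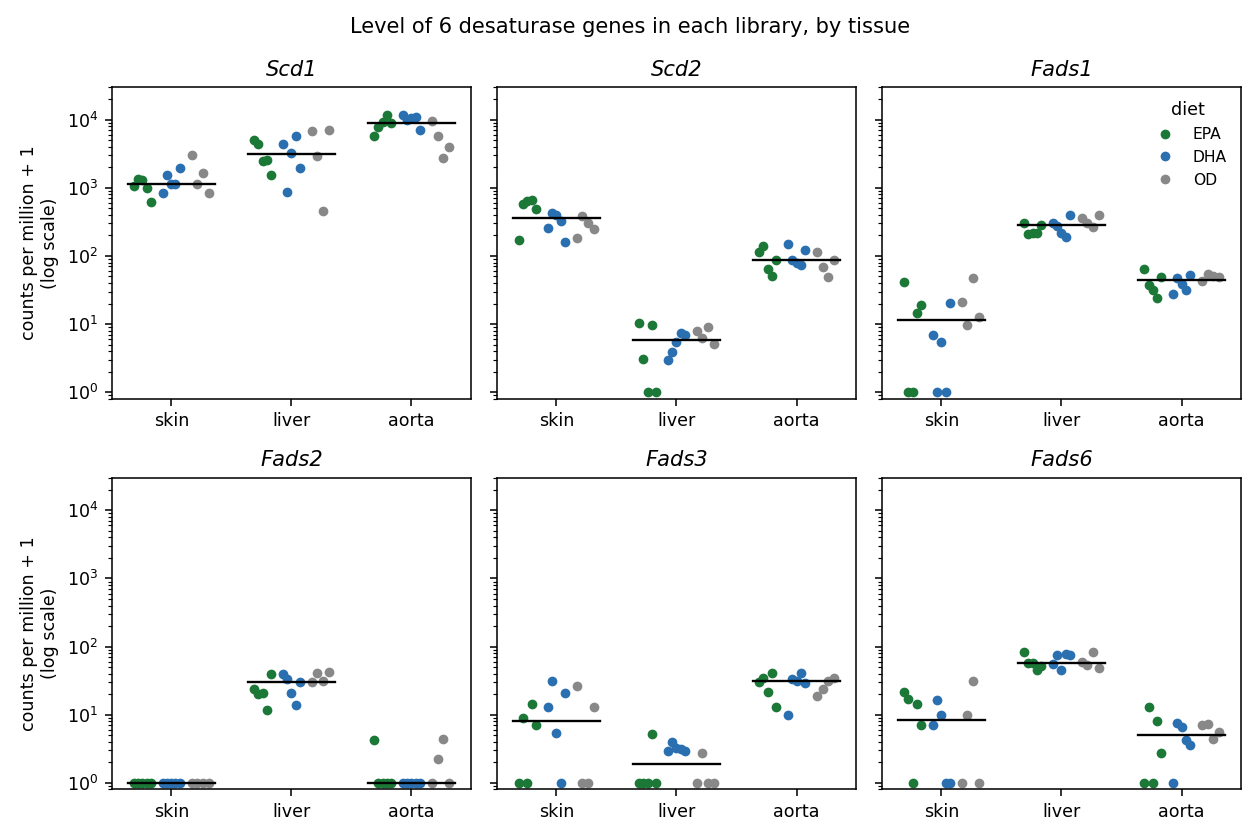
Level of 6 desaturases in each library, as CPM plus 1 on a log axis, for skin, liver and aorta; points are libraries coloured by diet (5 EPA, 5 DHA, 4 OD a tissue) and lines are medians over 14 libraries. Scd2 is highest in skin, Fads1, Fads2 and Fads6 in liver, and Fads3 in aorta, while Scd1 reaches 3553 CPM on average in liver and 8284 CPM in aorta with overlapping libraries.

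Liver transcripts were present at a low level in the other tissues. Alb had 44 to 99 counts in each skin library and 69 to 204 in each aorta library. At the ratio of liver, the Alb counts of skin would go with 76.5 Scd1, 5.78 Fads1 and 1.21 Fads6 counts, and 2064, 20 and 13 were measured. Those of aorta would go with 10.7 Fads1, 1.04 Fads2 and 2.23 Fads6 counts, and 282, 4 and 30 were measured. At the ratio of aorta, the 23 Ucp1 counts of skin would go with 128 Scd1 counts. The part of such transcripts in the low counts of Fads2 in aorta and of Fads1 and Fads6 in skin was not tested further.

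The diets were compared within each tissue by edgeR's quasi-likelihood test, with adjustment over all genes tested. No desaturase passed in any of the 9 comparisons of 2 diets, and for no tested desaturase were the libraries of 1 diet all above or all below those of another. Over all genes such separation held for 7.63%, 3.10% and 0.673% in aorta (DHA against OD, EPA against OD, EPA against DHA), for 2.37%, 1.87% and 0.717% in liver and for 0.656%, 1.41% and 0.422% in skin. The nearest were Scd1 in aorta on the DHA diet and, with an unadjusted p under 0.05 only, Scd1 in aorta, Fads1 in liver and Scd2 in skin on the EPA diet.

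In aorta 4 desaturases could be tested, and 0 of them passed between the DHA and OD diets (1 at an unadjusted p under 0.05), where 4.88% of 6538 genes did (4.28% higher and 0.597% lower on DHA). Scd1 stood at 11810, 10080, 10760, 11110 and 7110 CPM on the DHA diet and at 9567, 5763, 2730 and 3940 CPM on the OD diet. All DHA libraries but the lowest were above all OD libraries, so that DHA was the higher in 19 of 20 pairs of libraries. The means were 10170 ± 1823 CPM on DHA and 5500 ± 2984 CPM on OD (SD, n = 5 and 4), the log2 difference was 0.89 ± 0.30 (SE, 95% interval 0.27 to 1.52), and edgeR's adjusted p was 0.100. Whether this passes depends on the tool and on 1 library. DESeq2 gave 0.89 with an adjusted p of 0.0198 (5.05% of genes called), edgeR without a filter on low counts 0.95 with 0.00528 (1.90% called), and limma, run on the authors' normalised values, 1.05 with 0.0313 (4.34% called). Without OD aorta replicate 1, the shallowest aorta library with 179795 counts, edgeR gave 1.30 with an adjusted p of 0.00647 (5.09% of genes called). In the other alternatives run Scd1 did not pass. Among these were edgeR with library totals in place of TMM, on the 2 diets alone, without the high-Xist libraries and in the fit of all 42 libraries. Library totals moved the median of all genes to -0.25, against -0.05 with TMM.

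On the EPA diet Scd1 stood at 5750, 7704, 9147, 11680 and 8828 CPM in aorta, with a mean of 8622 ± 2166 CPM (SD, n = 5). It was the higher in 15 of 20 pairs with OD libraries, and the log2 difference was 0.65 ± 0.30 (SE, 95% interval 0.03 to 1.27, edgeR adjusted p = 0.365). None of the 4 desaturases passed here (1 at an unadjusted p under 0.05), against 0.275% of all genes (0.229% higher and 0.0459% lower on EPA), and DESeq2 and limma called 0 as well. Without OD aorta replicate 1 the difference was 1.06 and passed (adjusted p = 0.0444, 1.75% of genes called). EPA and DHA diets differed by -0.24 ± 0.28 (95% interval -0.82 to 0.34), and 0% of genes passed between them by edgeR (226 at an unadjusted p under 0.05).

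Neither Scd2, Fads1 nor Fads3 passed in aorta. Scd2 averaged 101.8 ± 33.1 CPM on the DHA diet, 90.1 ± 36.5 CPM on the EPA diet and 78.5 ± 28.0 CPM on the OD diet (SD, n = 5, 5 and 4). Its differences from OD were 0.45 ± 0.28 for DHA (edgeR adjusted p = 0.440, 95% interval -0.14 to 1.03) and 0.32 ± 0.28 for EPA (adjusted p = 0.741). Fads1 was at 26.4, 45.6, 37.6, 30.1 and 51.2 CPM on DHA, at 62.4, 36.9, 31.1, 23.3 and 47.7 CPM on EPA and at 41.9, 53.03, 49.1 and 47.8 CPM on OD. The OD libraries lay close together, within the range of EPA and partly above that of DHA, with differences of -0.39 ± 0.25 for DHA (adjusted p = 0.444, 95% interval -0.89 to 0.12) and -0.31 ± 0.24 for EPA (adjusted p = 0.686). Fads3 averaged 27.9 ± 11.5 CPM on DHA, 27.1 ± 10.9 CPM on EPA and 26.3 ± 7.25 CPM on OD, and its intervals reached from -0.63 to 0.76 for DHA against OD and from -0.75 to 0.65 for EPA against OD. Fads6 had 8 counts on DHA, 11 on EPA and 11 on OD, and Fads2 had 0 on DHA, 1 on EPA and 3 on OD.

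**Figure D2:**
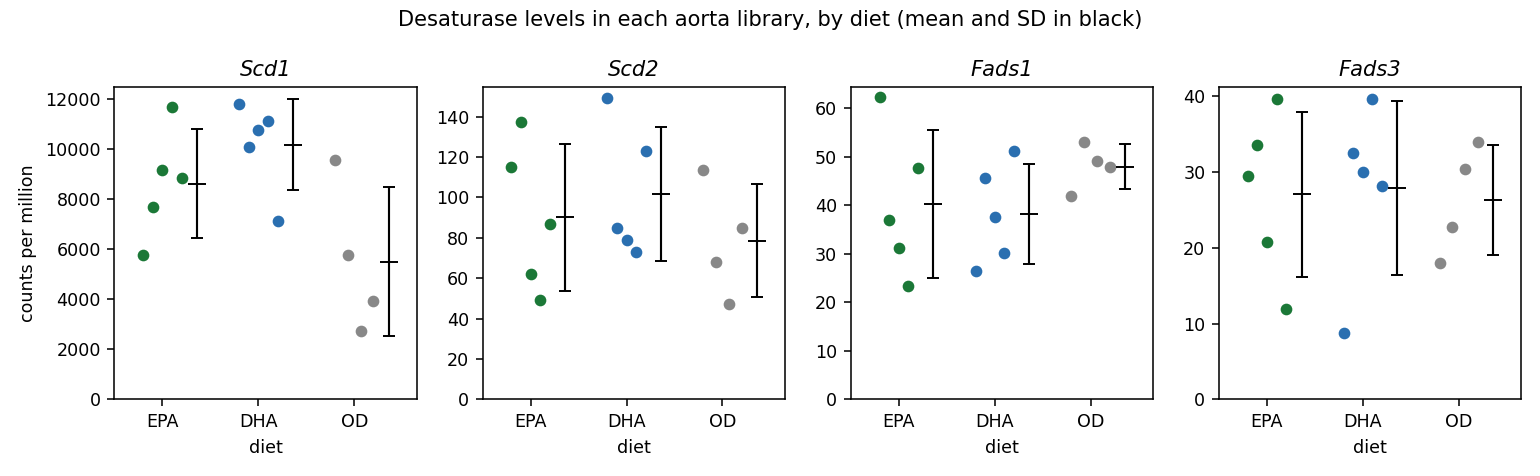
Level of the 4 tested desaturases in each aorta library, in CPM on linear axes from 0, for the EPA (n = 5), DHA (n = 5) and OD (n = 4) diets; black marks are means with SD. For Scd1 only the lowest DHA library, at 7110 CPM, is below an OD library, the one at 9567 CPM; no difference passed the main test.

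Genes of the same pathway passed the test in aorta. Of 20 tested genes of the list of SREBP1 targets and fatty acid synthesis 16 rose on DHA and 0 fell, with a median log2 difference of 1.00, against -0.05 over all 6538 genes. Elovl6, which lengthens palmitate to the stearate that Scd1 uses, rose to 574 ± 112 CPM on DHA, against 236 ± 84.2 CPM on OD (1.33 ± 0.22, adjusted p = 0.00239). G6pdx, a source of NADPH, rose by 1.41 ± 0.20 (adjusted p = 0.00118), and Agpat2 of triglyceride synthesis by 1.08 ± 0.16 (adjusted p = 0.00186). On EPA 4 of the 20 rose, with a median of 0.81: Agpat2 (1.00 ± 0.16), Pgd (1.24 ± 0.23), G6pdx (1.04 ± 0.20) and Elovl6 (1.02 ± 0.22, adjusted p = 0.0452). With library totals in place of TMM 11 of the 20 rose on DHA and 2 on EPA, and over all genes 79 were called higher and 126 lower on DHA, against 280 and 39 with TMM. Without OD aorta replicate 1, 13 rose on DHA and 10 on EPA.

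Of 10 tested genes of fatty acid elongation 3 rose on DHA and 0 fell: Elovl6, Elovl3 of brown fat and sebaceous glands (1.61 ± 0.37, adjusted p = 0.0141), and Hsd17b12, the reductase of the elongation complex (0.93 ± 0.22, adjusted p = 0.0140). Of the 4 tested electron donors of desaturases, Cyb5r3, the reductase of cytochrome b5, fell to 183 ± 16.3 CPM on DHA, against 257 ± 37.5 CPM on OD (-0.51 ± 0.14, adjusted p = 0.0340). Cyb5a, the cytochrome b5 itself, was at 230 ± 26.0 CPM on DHA and 214 ± 18.3 CPM on OD (0.11 ± 0.15, adjusted p = 0.759). Of 15 tested regulators 1 rose on DHA, the adipocyte receptor Pparg (0.82 ± 0.24, adjusted p = 0.0496). That is 6.67% of the list, near the share of all genes: 4.28% were called higher and 0.597% lower on DHA. Srebf1, the gene of SREBP1, averaged 60.7 ± 6.73 CPM on DHA and 48.3 ± 13.8 CPM on OD. Of 18 tested PPAR alpha targets 10 rose on DHA and 0 fell, among them Hadha of fatty acid oxidation (0.92 ± 0.17, adjusted p = 0.00461), and 2 rose on EPA. Of 7 tested users of desaturase products Dgat2 (0.75 ± 0.16, adjusted p = 0.0101) and Dgat1 (0.95 ± 0.25, adjusted p = 0.0306) of triglyceride synthesis rose on DHA, with a median of 0.06 over the 7. With library totals in place of TMM none of the regulators and none of the users passed on DHA, their medians were -0.01 and -0.15, 4 PPAR alpha targets and 2 elongation genes rose on DHA, and no PPAR alpha target passed on EPA. Without OD aorta replicate 1, 5 PPAR alpha targets and 2 elongation genes rose on EPA, where Elovl6 alone of the elongation genes rose with that library. None of 4 other membrane desaturases passed on DHA or EPA.

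Markers of fat moved with these genes in aorta. Of 16 tested brown adipocyte markers 8 rose on DHA and 0 fell, and of 16 white adipocyte markers 5 rose and 0 fell. Over all genes 4.28% were called higher and 0.597% lower on DHA. The summed level of the brown list was 7165 to 8176 CPM in DHA libraries, 4294 to 7202 CPM in EPA libraries and 2129 to 4985 CPM in OD libraries. That of the white list was 9032 to 12310 CPM in DHA libraries, 6345 to 14090 CPM in EPA libraries and 6179 to 10280 CPM in OD libraries. No gene of either list was at 0 in aorta, and Ucp1 averaged 1859 ± 308 CPM on DHA, 1517 ± 506 CPM on EPA and 782 ± 311 CPM on OD. All 11 smooth muscle markers had a lower estimate on DHA than on OD, and 1 of them, Smtn, fell (-0.60 ± 0.16, adjusted p = 0.0335). Of 9 tested sebaceous gland markers 7 rose on DHA, among them Fasn and Elovl3. The lists share genes, so their counts are not independent. Elovl3 is in the brown adipocyte, sebaceous and elongation lists, Fasn in the sebaceous and SREBP1 lists, and Pparg in the sebaceous and regulator lists. Elovl6 is in the SREBP1 and elongation lists, and Dgat2 in the SREBP1 list and that of users of desaturase products. The wax synthases Awat1 and Awat2 were the only 2 of the 16 listed sebaceous genes at 0 in every aorta library. Awat2 was also at 0 in all 5 DHA skin libraries. The part of sebaceous cells in the aorta values was not tested. With library totals in place of TMM, 7 brown, 1 white and 2 sebaceous markers rose on DHA and 7 smooth muscle markers fell, where 79 of all 6538 genes were called higher and 126 lower. Without OD aorta replicate 1, 6 smooth muscle markers fell on DHA, and 6 brown, 2 white and 2 sebaceous markers rose on EPA, where 1 brown marker, Otop1, and no white or sebaceous one rose with that library. Of all 7152 genes tested without it, 304 were called higher and 60 lower on DHA, and 114 higher and 11 lower on EPA.

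Other cell types were checked in the same comparisons. All 3 tested skeletal muscle markers had a higher estimate on DHA and on EPA, with medians of 2.00 and 2.05 and none past the threshold. Their list summed to 12.2 to 723 CPM in DHA libraries, 36.3 to 1036 CPM in EPA libraries and 33.4 to 163.5 CPM in OD libraries. Of 9 fibroblast markers 8 had a lower estimate on each omega-3 diet, and of 7 macrophage and leukocyte markers 6, with none past the threshold. With library totals in place of TMM all 9 and all 7 had a lower estimate on each omega-3 diet, and 2 fibroblast markers fell on DHA. Over all 6538 genes 79 were then called higher and 126 lower on DHA. The fibroblast list summed to 2589 to 3685 CPM on DHA, 2840 to 5704 CPM on EPA and 3558 to 5615 CPM on OD, and the macrophage list to 331 to 435 CPM on DHA, 315 to 501 CPM on EPA and 417 to 634.5 CPM on OD. Of 7 endothelial markers the receptor Tek fell on DHA (-1.04 ± 0.29, adjusted p = 0.0402), and none passed without OD aorta replicate 1. The endothelial list summed to 316 to 421 CPM on DHA, 344 to 441.0 CPM on EPA and 440.9 to 502 CPM on OD. The part of these cell types in the desaturase values of aorta was not tested.

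The mean log2 level of the 32 tested adipocyte markers was 7.66 ± 0.08 on DHA, 7.50 ± 0.37 on EPA and 6.94 ± 0.30 on OD (SD). Across the 14 aorta libraries it went with Scd1 with Pearson's r 0.75 and Spearman's rho 0.67, with r 0.65 without the 2 libraries farthest from the median and 0.46 once the diet means were removed. These correlations are descriptions over libraries that share their tissue and scaling, and include the diet groups themselves. With that mean as a covariate, the DHA difference of Scd1 was 0.28 ± 0.40 (adjusted p = 0.974), and that of EPA 0.16 ± 0.35 (adjusted p = 0.994). None of the 20 SREBP1 targets passed in that fit, with medians of 0.55 on DHA and 0.41 on EPA. How far the amount of fat in a sample sets the Scd1 difference cannot be told apart from the diet, since the marker mean kept these diets apart: DHA was at 7.60 to 7.79 and OD at 6.51 to 7.14.

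Among all 6538 genes the 3 whose log2 level was most like that of Scd1 over the 14 aorta libraries were Fasn, the fatty acid synthase (r = 0.954), Acaca, the acetyl-CoA carboxylase before it (r = 0.953), and Tmem45b (r = 0.945). The median size of r over all genes was 0.261. Fasn averaged 3437 ± 426 CPM on DHA, 2934 ± 626 CPM on EPA and 1757 ± 776 CPM on OD. With Scd1, r was 0.24 with Scd2, -0.23 with Fads3 and -0.65 with Fads1 (rho -0.84). The genes most like the others were Sbk1, Lgals1 and Rere for Scd2 (r 0.81 to 0.82), Vkorc1, Zyx and Bach1 for Fads1 (0.82 to 0.92), and Whamm, Nfatc1 and Esyt1 for Fads3 (0.80 to 0.87), the last after 1 unnamed predicted gene or clone.

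**Figure D3:**
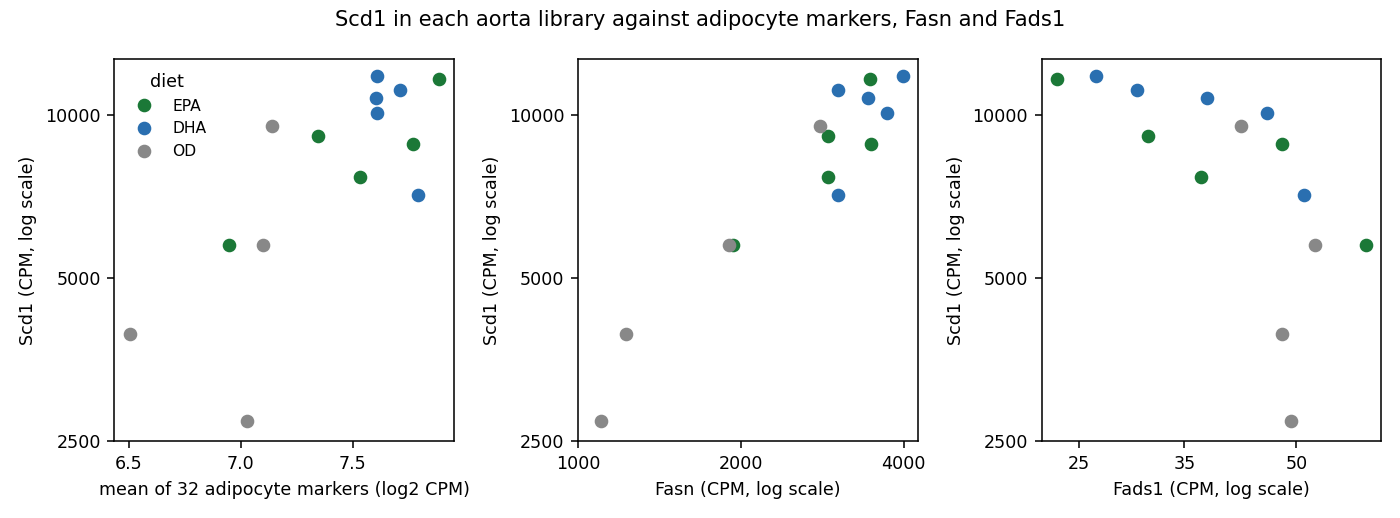
Scd1 in each of the 14 aorta libraries (CPM, log axis) against the mean log2 level of 32 adipocyte markers, against Fasn and against Fads1 (log axes); colours are diets. Scd1 lies close to a line with Fasn (r = 0.954), less so with the adipocyte mean (r 0.75), and falls off as Fads1 is higher (r -0.65).

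In liver Scd1, Fads1, Fads2 and Fads6 were tested. None passed between DHA and OD (0 at an unadjusted p under 0.05) or between EPA and OD (1 at an unadjusted p under 0.05), and 0% of 5018 genes passed in either comparison or between EPA and DHA by edgeR (309, 336 and 184 at an unadjusted p under 0.05). DESeq2 and limma called none of the 4 either. Scd1 varied widely between libraries of the same diet. It was at 4460, 864, 3265, 5845 and 1942 CPM on DHA, at 5027, 4387, 2519, 2560 and 1534 CPM on EPA, and at 6827, 2909, 449 and 7157 CPM on OD. The lowest and the 2 highest of all 14 liver libraries were on OD, a range of 16.0-fold over the tissue. Differences from OD were -0.40 ± 0.60 for DHA (edgeR adjusted p = 0.945, 95% interval -1.66 to 0.85) and -0.44 ± 0.60 for EPA (adjusted p = 0.954, interval -1.69 to 0.82). As folds these intervals reach from 0.316 to 1.81 and from 0.309 to 1.77. The SD of Scd1 within diets was 1.25 on the log2 scale, the 70th largest of 5018 genes, whose median was 0.35. The within-diet SD was 0.32 for Fads1, 0.48 for Fads2 and 0.32 for Fads6.

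Fads1 and Fads2 had lower means on both omega-3 diets. Fads1 was at 307, 207, 214, 216 and 282 CPM on EPA, at 302, 277, 213, 186 and 394 CPM on DHA and at 360, 307, 266 and 394 CPM on OD. In EPA livers 3 libraries were below all OD libraries and the other 2 were among them. The EPA difference was -0.44 ± 0.20 (unadjusted p = 0.0462, edgeR adjusted p = 0.726, 95% interval -0.86 to -0.01), and the DHA difference -0.27 ± 0.20 (adjusted p = 0.853, interval -0.70 to 0.15). Fads2 was at 22.6, 18.8, 19.6, 10.7 and 38.1 CPM on EPA, at 38.9, 32.1, 19.99, 12.8 and 29.2 CPM on DHA and at 28.6, 40.1, 30.5 and 41.3 CPM on OD, from 5 to 30 counts a library. Its differences were -0.66 ± 0.32 for EPA (adjusted p = 0.755, interval -1.33 to 0.01) and -0.40 ± 0.31 for DHA (adjusted p = 0.873). Fads6 averaged 58.5 ± 14.5 CPM on EPA, 64.6 ± 14.3 CPM on DHA and 59.7 ± 15.1 CPM on OD, with differences of -0.01 ± 0.22 and 0.12 ± 0.22. Fads3 had 2 liver counts on EPA, 5 on DHA, 1 in each library, and 1 on OD.

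**Figure D4:**
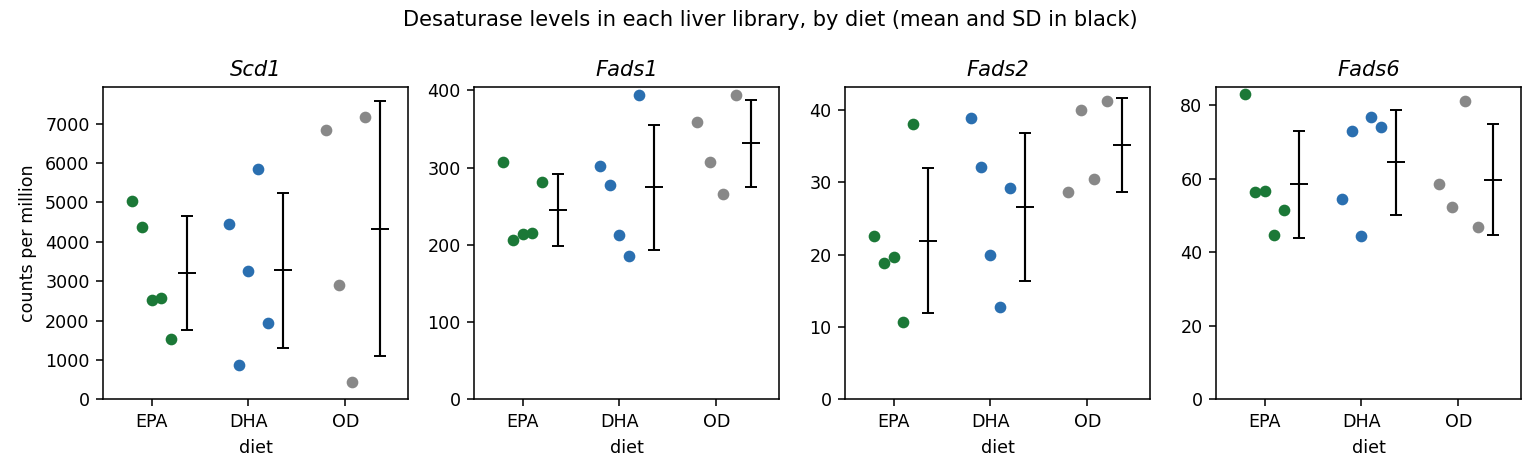
Level of the 4 tested desaturases in each liver library, in CPM on linear axes from 0, for the EPA (n = 5), DHA (n = 5) and OD (n = 4) diets; black marks are means with SD. Scd1 spans 449 to 7157 CPM within the OD diet alone, and 3 EPA libraries of Fads1, at 207 to 216 CPM, are below the 4 OD libraries at 266 to 394 CPM.

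Fads1 and Fads2 went together over the 14 liver libraries (r = 0.76, rho = 0.69), and neither went with Scd1 (r 0.07 and -0.17). The genes most like Fads1 were Dhcr7 and Acat2 (r 0.86 and 0.85), a last and a first step of the cholesterol pathway, and the linker histone H1f0 (0.84). For Fads2 they were the phospholipid transfer protein Pltp, Dsg2 and Ufd1l (0.80 to 0.81), for Scd1 Clcc1, Emc8 and the zinc transporter Slc39a4 (0.77 to 0.86), and for Fads6 Mrps5, Hp1bp3 and Ablim1 (0.78 to 0.82). The median size of r over all genes was 0.21 to 0.22 for these 4.

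The lists around the desaturases had no gene past the threshold in liver, and the medians of several were on the other side of 0 from those of aorta. Of 17 tested SREBP1 targets 14 had a lower estimate on EPA and 14 on DHA, with medians of -0.44 and -0.47, against 0.01 over all genes. Thrsp, a lipogenic gene of liver, was at 189 ± 78.1 CPM on EPA and 530.2 ± 289.8 CPM on OD (-1.49 ± 0.43, adjusted p = 0.439). Elovl3 was at 10.1 ± 10.48 CPM on EPA and 55.2 ± 36.2 CPM on OD (-2.47 ± 0.64, adjusted p = 0.439). Of 19 PPAR alpha targets 16 had a higher estimate on each omega-3 diet, with medians of 0.22 on EPA and 0.34 on DHA. The electron donor Cyb5r3 was at 262 ± 41.7 CPM on EPA and 363 ± 93.6 CPM on OD (-0.47 ± 0.18, adjusted p = 0.698). Library totals in place of TMM moved the median of all liver genes to 0.15 for each omega-3 diet against OD.

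In skin only Scd1 and Scd2 were tested, in libraries with a median of 91629 counts, and 0% of 2133 genes passed in any comparison of diets by edgeR (46 for DHA against OD, 89 for EPA against OD and 46 for EPA against DHA at an unadjusted p under 0.05). Neither gene passed by edgeR, DESeq2 or limma, and 1 had an unadjusted p under 0.05, Scd2 between EPA and OD. Scd2 was at 171, 580, 638, 664 and 489 CPM on EPA, at 257, 425, 397, 327 and 157 CPM on DHA and at 181, 385, 305 and 248 CPM on OD. Of the 5 EPA libraries 4 were above all libraries of the other diets, and the fifth was below all OD libraries. The difference of EPA from OD was 0.86 ± 0.34 (unadjusted p = 0.0199, edgeR adjusted p = 0.9752, 95% interval 0.15 to 1.57), and from DHA 0.66 ± 0.32 (adjusted p = 1.00, interval -0.01 to 1.32). DHA differed from OD by 0.20 ± 0.35 (interval -0.52 to 0.93).

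Scd1 was at 1067, 1351, 1297, 989 and 627 CPM in skin on EPA, at 835, 1550, 1128, 1131 and 1948 CPM on DHA and at 2995, 1119, 1664 and 850 CPM on OD. The groups overlapped throughout, and the highest OD library was far above the rest. The differences from OD were -0.66 ± 0.32 for EPA (edgeR adjusted p = 0.9752, 95% interval -1.33 to 0.02) and -0.35 ± 0.33 for DHA (adjusted p = 0.999, interval -1.03 to 0.32). The share of Scd2 among stearoyl-CoA desaturase counts was 13.8, 29.9, 32.98, 40.2 and 43.6% in EPA libraries, 23.4, 21.5, 25.9, 22.4 and 7.41% in DHA libraries and 5.69, 25.6, 15.5 and 22.6% in OD libraries. It averaged 32.1 ± 11.6% on EPA, 20.1 ± 7.30% on DHA and 17.3 ± 8.84% on OD (SD, n = 5, 5 and 4). The difference of EPA from OD was 14.8 percentage points (exact permutation test, two-sided, p = 0.0952, adjusted p = 0.972 over 47 tests of shares in the 3 tissues, of which 0 passed), and from DHA 12.0 points (exact p = 0.111). With so few libraries, a single share could not pass after adjustment over 47 tests even if the diets were fully apart. The adjusted p thus decides nothing about this share. Each share rests on 58 to 633 counts, and the library with 43.6% has a 95% Wilson interval of 36.7 to 50.8%.

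**Figure D5:**
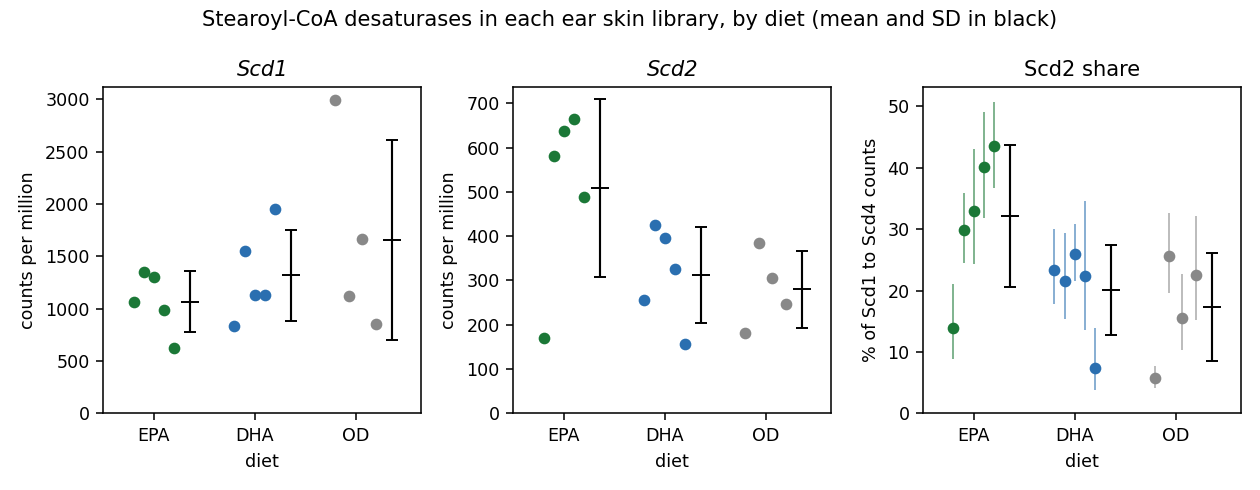
Scd1 and Scd2 in each ear skin library (CPM, linear axes from 0) and the share of Scd2 among Scd1 to Scd4 counts (percent, thin bars are 95% Wilson intervals), for the EPA (n = 5), DHA (n = 5) and OD (n = 4) diets; black marks are means with SD. Of the 5 EPA libraries 4 hold Scd2 shares of 29.9 to 43.6%, above the highest share of any other library, 25.9%. The difference did not pass the test, which with so few libraries a single share could not pass after adjustment.

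The sebaceous gland list summed to 3595 to 6459 CPM in EPA skin, 2613 to 7034 CPM in DHA skin and 3737 to 6099 CPM in OD skin, with Mc5r at 0 in all skin libraries, and the 3 ranges overlapped. Of 9 SREBP1 targets tested in skin 5 had a higher and 4 a lower estimate on EPA than on OD, and of 7 elongation genes 2 and 5, with none past the threshold. The white adipocyte list summed to 433 to 1555 CPM in EPA skin, 381 to 1993 CPM in DHA skin and 520 to 2868 CPM in OD skin. These sums do not measure the named cells alone. The sebaceous list summed to 2558 to 5097 CPM in liver and 2044 to 5290 CPM in aorta, and the white adipocyte list to 487 to 2543 CPM in liver. The part of these cell types in the Scd1 and Scd2 values of skin was not tested.

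Whether the response of a desaturase to diet differed between tissues was tested in the fit of all 42 libraries. None of the 6 desaturases passed in any of 6 such contrasts, with Fads2 left out of those with skin, where it had 0 counts. Over all 9912 genes 0 to 0.0404% passed (0.0202% for DHA and 0.0404% for EPA in liver against aorta, 0% in the others). For Scd1, the log2 difference of DHA from OD in liver minus that in aorta was -1.39 ± 0.64 (unadjusted p = 0.0336, edgeR adjusted p = 0.600), and that in skin minus that in aorta was -1.38 ± 0.65 (adjusted p = 0.704). For EPA the same estimates were -1.19 ± 0.64 (adjusted p = 0.861) and -1.40 ± 0.65 (adjusted p = 0.732). A difference between tissues in the response of Scd1 to diet was thus not shown.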

How the data were processed

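RNA of aorta, liver and ear skin was made into 3′ tag libraries with molecular indices (10 ng of RNA, first read of 100 bp), per the labels' protocols. The authors deposited whole-number counts per gene, named by symbol and Ensembl identifier per the file headers. The authors' deposited normalised values, headed CPM per the file headers, were treated as a score, since their column totals differ and the scaling behind them is not stated there. They served in 1 alternative. The submitters' processing notes name GRCm38.p6 and edgeR. For the aligner, the counter and the collapsing of indices the labels give nothing.

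The counts were tested with edgeR 4.0.16 (R 4.3.3) by quasi-likelihood F-tests with TMM scaling, filterByExpr at a minimum count of 10 and Benjamini-Hochberg adjustment over all genes tested at 0.05, in 1 fit of 3 diets for each tissue and 1 of 9 groups. SE is the log2 difference divided by the square root of F. CPM is the count relative to the library total after TMM scaling within the tissue; summed levels of marker lists, floors and Xist use the total alone. Correlations use log2 CPM with a prior count of 2. The tests were tried on simulated data. Alternatives, of which those on gene lists were added after seeing the data, were DESeq2 1.42.0, limma 3.58.1 on log2 of the deposited values plus 1, other scalings and filters, fewer libraries and an adipocyte covariate. The labels tie no library to a named mouse or batch, so p-values measure the spread between these libraries, which may be partly technical. Wilson intervals and floors of 3 counts cover counting error only.

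The members, gene lists and tests were chosen with earlier results of these data known. Named genes are the 8 desaturases, the 3 most alike of each tested one in aorta and liver, and up to 4 members of a list with the smallest p, or up to 2 of a marker list. Fasn, Srebf1 and Cyb5a in aorta and Mc5r, Awat1 and Awat2 were added after their values were seen.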

Additional observations from a re-analysis of the deposited data

How the results depend on the processing

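No paired analysis was run, because the labels number no replicates and tie no library of one tissue to another. Comparisons between tissues thus treat as independent libraries that cannot all come from different mice. The count of desaturases that passed between DHA and OD in aorta was 0, and 1, Scd1, with DESeq2, without a filter on low counts and with limma on the deposited values; leaving out 1 library at a time it was 0 to 1 for DHA and 0 to 1 for EPA, each time 1 without OD aorta replicate 1. Scd1 then ranged from 0.66 to 1.30 for DHA and from 0.42 to 1.06 for EPA. All other counts of desaturases that passed stayed within 1.5 times under every alternative run. Estimates that passed no test and changed sign were those of Fads3 in aorta (-0.13 for DHA with library totals; 0.21 for EPA without the libraries with high Xist, 0.11 with the adipocyte covariate), Fads1 in aorta for EPA against DHA (-0.36 without high Xist), Fads6 in liver for EPA (0.14 with library totals) and Scd1 in liver for EPA against DHA (0.12 with limma, 0.0882 without high Xist); the cause was not tested. Leaving out 1 library at a time, sign changes occurred for Fads1 between EPA and DHA (-0.0773 to 0.21 in aorta, -0.27 to 0.0117 in liver), Fads3 in aorta (-0.13 to 0.27 for DHA, -0.23 to 0.19 for EPA, -0.31 to 0.11 between them), Fads6 (-0.17 to 0.16 for EPA in liver, -0.0276 to 0.70 between skin and aorta), Scd1 (-0.27 to 0.29 between EPA and DHA in liver, -0.57 to 0.12 for DHA in skin) and Scd2 between EPA and DHA in aorta (-0.37 to 0.0367). Scd1 between liver and aorta passed also without a filter (-0.46) and without OD liver replicate 4 (-0.58). The counts of listed genes with library totals, with the adipocyte covariate and without OD aorta replicate 1 are alternatives added after seeing the data; with library totals, 4 genes were called higher and 2 lower on EPA over all genes, against 15 and 3. In skin, 6 of the 8 desaturases had too few counts to be tested.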
